A study of Mus musculus with 39 samples.

Results

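The liver makes most of the proteins that carry lipids in blood, and RNA for 10 of these apolipoprotein genes was measured in the livers of mice exposed to an aggressor. The genes were Apoa1, Apoa2, Apoa4, Apoa5, Apob, Apoc1, Apoc3, Apoe, Apoh and Apom, chosen by name and found on the array through the RefSeq accession that each probe carries, which gave 14 probes. They were 10 of the 17016 genes with a RefSeq probe. Of the 10, 7 had 1 probe, Apoa5 and Apoc3 had 2 and Apob had 3, and the probe with the highest mean liver signal was reported for each gene.

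Male C57BL6/J mice, 5 to 6 weeks old and singly housed per the methods, were kept in a small cage within the cage of an SJL aggressor for 6 hrs daily without food or liquid and met the aggressor 3 times per session (AggE). Control mice (Ctrl) followed the same schedule, fasting included, with no aggressor. Livers were taken 24 hrs after 5 days of sessions (4 Ctrl and 5 AggE mice), 24 hrs after 10 days (4 and 5), 1.5 wks after 5 days (4 and 5) and 4 wks after 10 days (6 and 6). Per the methods, mice were placed across a partition from an aggressor shortly before the liver was collected. No genetic change and no drug is named for any group. The labels disagreed on the length of the regimen. The titles of all 5 AggE mice and 1 Ctrl mouse at 1.5 wks point to 10 days, and the descriptions of the 5 AggE mice sampled 24 hrs after the shorter regimen name 1 day. The source labels of the liver channel, which name 5 days for all of these, were used. The title of that Ctrl mouse, replicate 4 at 1.5 wks, also starts with HC where the other Ctrl titles start with C. It was kept as Ctrl by its source label. Each liver was labeled with Cy5 and hybridized with a pooled mouse reference RNA labeled with Cy3, on 1 array and without a dye swap. A level below is the log2 ratio of liver over reference after normalization, and a difference is the AggE mean minus the Ctrl mean on that scale.

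Apolipoproteins coat the particles in which triglyceride and cholesterol travel. Apob forms the backbone of very low density lipoprotein, the A-class proteins are found mainly on high density lipoprotein and on particles rich in triglyceride, and the C-class proteins and Apoe govern how particles are broken down by lipases and taken up by receptors. Hepatocytes express nearly all of them at high levels. Apoa4 is made chiefly by the small intestine and also, in mice, by the liver, and its hepatic RNA is known to vary with feeding state and lipid load.

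The arrays differed in quality. Between 19.96% and 79.6% of the probes on an array were well above background in the liver channel. Each array's median correlation with the others over all RefSeq probes was at least 0.895 for 34 arrays and lay between 0.790 and 0.854 for the other 5. Those 5 were Ctrl replicates 1 and 3 and AggE replicates 1 and 5 at 1.5 wks post-5-day and AggE replicate 1 at 4 wks post-10-day. The arrays lay on 11 slides. Ctrl and AggE shared a slide at 1.5 wks (slide 7) and at 4 wks (slide 9), with 1 AggE and 3 Ctrl mice on each, and at neither 24-hr point, where slide and group cannot be told apart. All 24-hr arrays were scanned on 1 day and all 4-wk arrays on another, and of the 9 arrays at 1.5 wks, AggE replicate 2 and Ctrl replicate 4 were scanned with the 4-wk arrays. All 7 hepatocyte markers on the array were well above background on all 39 arrays. Because whole liver was used, fewer cells of a type and less RNA per cell cannot be told apart.

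Apoa4 was higher in AggE than in Ctrl livers 24 hrs after both regimens, by 3.95-fold after 5 days and 6.20-fold after 10 days, and it was the only one of the 10 genes that passed the test in any of the 4 comparisons of AggE with Ctrl. At 1.5 wks its signal was near background in both groups, and at 4 wks the difference did not pass. The other 9 genes, Apoa1 and Apob among them, passed in no comparison. A gene was called when its adjusted p in limma's moderated test was 0.05 or less, with Benjamini-Hochberg adjustment over all RefSeq probes.

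At 24 hrs post-5-day, the Apoa4 level was 0.98, 0.46, 1.77 and 0.65 in the 4 Ctrl mice and 3.61, 2.75, 2.98, 2.96 and 2.42 in the 5 AggE mice. Every AggE mouse stood above every Ctrl mouse. The means were 0.96 ± 0.58 (SD, n = 4) and 2.94 ± 0.43 (SD, n = 5), a difference of 1.98 with a standard error of 0.25 and a 95% interval of 1.48 to 2.49 (limma adjusted p = 1.016e-05). Of all 17016 genes, 3.1% were called in this comparison in either direction, 0.3% were at least 2-fold apart with a p at or under 0.05 before adjustment (below, the fold limit), and in 2.52% every AggE mouse stood above every Ctrl mouse. Apoa4 met each of these, and 10 genes had a larger difference upward. The AggE mouse with the lowest value, 2.42, was the one hybridized on a slide apart from the other 24-hr mice (slide 6). On that same slide, 3 AggE mice of the 1.5-wk point had a mean Apoa4 level of 0.12.

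At 24 hrs post-10-day, the level was 1.72, 0.16, 0.35 and 0.84 in the Ctrl mice and 2.62, 3.52, 3.12, 4.09 and 3.66 in the AggE mice. The groups again did not overlap. The means were 0.77 ± 0.69 (SD, n = 4) and 3.40 ± 0.56 (SD, n = 5), a difference of 2.63 with a standard error of 0.25 and a 95% interval of 2.13 to 3.14 (limma adjusted p = 8.345e-08). Only 0.094% of all genes were called here, 0.182% met the fold limit, and 1.1% had every AggE mouse above every Ctrl mouse. Apoa4 had the smallest p of all genes and the 6th largest difference upward.

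The size of the Apoa4 difference depended on how the level was formed. The reference channel of its single spot was well above background on 9 of 39 arrays, against 22 for Apoh, 23 for Apob, 38 for Apoa5 and 39 for the other 6 genes. In the liver channel it was well above background on all 18 arrays of both 24-hr points. With the liver channel alone, the means were 6.74 ± 0.26 in Ctrl and 8.05 ± 0.52 in AggE mice after 5 days, a difference of 1.31 on the log2 signal scale (limma adjusted p = 2.336e-05). After 10 days they were 6.53 ± 0.22 and 8.06 ± 0.40, a difference of 1.53 (limma adjusted p = 1.579e-06). On that scale too every AggE mouse stood above every Ctrl mouse, after 5 days by a margin of 7.15 against 7.11. Of the 7 other ways of scaling that were tried, the liver channel alone included, the groups stayed apart in 2 after 5 days and in 5 after 10 days. After 5 days they overlapped without background subtraction, with a normexp offset of 0, with the log ratios of the series table, and without scaling between arrays or with Aquantile, which gave the same Apoa4 ranges. Without scaling between arrays the groups overlapped at both points and neither difference passed, with adjusted p = 0.325 after 5 days and 0.119 after 10 days (limma). With slide as a random block the 5-day difference was 1.89 and did not pass (limma adjusted p = 0.0616), and the 10-day one was 2.68 and passed (limma adjusted p = 0.00283). Fitted on the 9 arrays of each comparison alone, the 5-day difference passed (limma adjusted p = 0.0358) and the 10-day one did not (0.0505). Both passed without the 5 arrays of low correlation, with limma adjusted p = 7.376e-05 and 2.723e-06. None of those arrays was of a 24-hr group, so the differences stayed at 1.98 and 2.63. Only the shared estimate of the spread changed, which makes this no check of the 24-hr arrays.

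**Figure D1:**
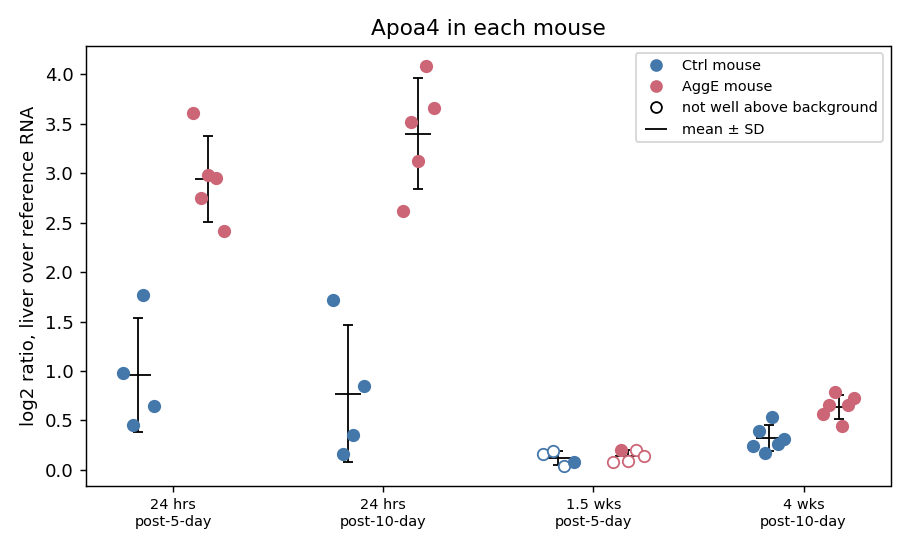
Log2 ratio of liver over reference RNA for Apoa4 (y axis) in each of 39 mice by time point (x axis), with Ctrl in blue, AggE in red, open circles where the liver signal was not well above background, and bars giving the mean ± SD. At both 24-hr points the AggE mice (2.42 to 4.09) lie above all Ctrl mice (0.16 to 1.77), and at 1.5 wks all 9 mice lie at or under 0.20.

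At 1.5 wks post-5-day the Apoa4 level was 0.12 ± 0.07 in Ctrl (SD, n = 4) and 0.14 ± 0.06 in AggE mice (SD, n = 5). Its liver signal was well above background in 1 mouse of each group, so these levels are close to the lowest that the array could measure. The difference was 0.03, with a 95% interval of -0.48 to 0.53 (limma adjusted p = 1). It was 1.41 with the processed signals (limma adjusted p = 0.797) and 0.65 with the series table (limma adjusted p = 1). By limma 0% of the 17016 genes were called in this comparison, 424 of them had an unadjusted p at or under 0.05, and 0.0411% met the fold limit.

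At 4 wks post-10-day the Ctrl mice had a lowest, median and highest Apoa4 level of 0.17, 0.29 and 0.54, and the AggE mice 0.44, 0.66 and 0.78. The ranges overlapped in part. The difference of 0.32 with a standard error of 0.22 did not pass (limma adjusted p = 0.422), while 4.18% of all genes were called and 0.3% met the fold limit. Fitted on these 12 arrays alone the same difference had a standard error of 0.07 and still did not pass (limma adjusted p = 0.0798).

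The change in the AggE difference over time was tested directly for Apoa4. After 5 days the difference was 1.96 larger at 24 hrs than at 1.5 wks (95% interval 1.24 to 2.68, limma adjusted p = 0.01285), where 0.094% of all genes were called. It passed no longer without the 5 arrays of low correlation (1.95, limma adjusted p = 0.237) or without Ctrl replicate 4 of 24 hrs post-5-day (limma adjusted p = 0.0523). After 10 days it was 2.31 larger at 24 hrs than at 4 wks (95% interval 1.64 to 2.98, limma adjusted p = 0.0005194), where 0.0764% were called. That comparison runs across the scan days. On the first scan day alone the change from 24 hrs to 1.5 wks was 1.98 and did not pass (limma adjusted p = 0.161). With slide as a random block neither change passed, at 1.82 from 24 hrs to 1.5 wks (limma adjusted p = 0.567) and 2.38 from 24 hrs to 4 wks (limma adjusted p = 0.337). Neither passed with the processed signals, without scaling between arrays, with a normexp offset of 0 or with the series table. Between the regimens at 24 hrs, the 5-day difference was 0.65 smaller than the 10-day one, with a 95% interval of -1.37 to 0.07 (limma adjusted p = 0.81), and 0.0353% of all genes were called.

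Intestinal cells express Apoa4 strongly, so their markers were read in the same livers. Of 8 on the array, Vil1, Sis, Lct, Cdx1, Cdx2 and Krt20 were well above background on no array of either 24-hr point, and Fabp2, which the liver also expresses, was so on all of them. Their summed liver signal ran from 1423 to 1833 in AggE and from 2091 to 3158 in Ctrl mice after 5 days, and from 1613 to 2178 and from 2098 to 3439 after 10 days. Fabp2 was the only one of the 8 well above background on all of these arrays, so the sum says little of intestinal cells. It differed by -1.38 after 5 days (limma adjusted p = 0.0521) and by -0.78 after 10 days. The summed signal of the 7 hepatocyte markers was 179500 to 227800 in AggE and 150200 to 179300 in Ctrl mice after 5 days, and 175500 to 207300 against 155300 to 198500 after 10 days. Kupffer cell and macrophage markers, summed over 9 genes, ran from 4616 to 6152 in AggE and from 3973 to 5307 in Ctrl mice after 5 days, and from 4548 to 5358 against 2589 to 4772 after 10 days. The part of these signals in the Apoa4 difference was not tested.

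Apoa1, Apoc3, Apoa4 and Apoa5 lie side by side on mouse chromosome 9, with no other listed gene between neighbours. None of the neighbours of Apoa4 passed at 24 hrs. At 24 hrs post-5-day Apoa1 differed by 0.04 (95% interval -0.66 to 0.74), Apoc3 by -0.26 (-0.84 to 0.31) and Apoa5 by 0.23 (-0.57 to 1.03). At 24 hrs post-10-day the values were -0.13 for Apoa1 (-0.83 to 0.57), -0.02 for Apoc3 (-0.59 to 0.56) and 0.19 for Apoa5 (-0.61 to 0.99), and none of these intervals reaches the lower bound for Apoa4. RefSeq promoters matched for 8 of the 10 genes, in 12 windows, but not for Apoc1 and the neighbour Apoc3, which were not searched. The 250 bases before the start are shown for Apoa4 and for the neighbours Apoa1 and Apoa5 because these genes lie side by side and only Apoa4 was called (RefSeq, build GRCm38.p6, plus strand, 5' to 3'). The windows are chr9:46228380-46228629 for Apoa1, chr9:46240594-46240843 for Apoa4 and chr9:46268358-46268607 for Apoa5. Capitals mark matches to the motifs searched on both strands, which were CAAAGTNCA (a form of the direct repeat bound by HNF4A and PPARA), the E-box CACGTG, the TATA box in the form TATAAA, and TTACNCAA (a form bound by C/EBP factors).
Apoa1: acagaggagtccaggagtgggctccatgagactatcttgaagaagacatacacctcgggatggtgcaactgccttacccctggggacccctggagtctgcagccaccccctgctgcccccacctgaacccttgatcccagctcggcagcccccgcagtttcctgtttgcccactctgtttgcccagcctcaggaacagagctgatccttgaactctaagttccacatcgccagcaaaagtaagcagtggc
Apoa4: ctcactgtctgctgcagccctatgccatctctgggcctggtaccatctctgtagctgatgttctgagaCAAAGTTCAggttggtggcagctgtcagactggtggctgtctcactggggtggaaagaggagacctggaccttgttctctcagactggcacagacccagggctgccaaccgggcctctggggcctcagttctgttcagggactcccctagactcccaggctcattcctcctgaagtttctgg
Apoa5: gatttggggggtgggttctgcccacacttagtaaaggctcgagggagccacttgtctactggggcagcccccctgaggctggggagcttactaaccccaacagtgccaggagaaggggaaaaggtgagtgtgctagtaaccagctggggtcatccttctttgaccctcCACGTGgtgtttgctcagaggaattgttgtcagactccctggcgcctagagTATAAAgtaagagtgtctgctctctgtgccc
Among the 12 windows, CAAAGTNCA occurred in that of Apoa4 only, as CAAAGTTCA with its first base 182 bases before the start, and in 1.19% of all 32851 promoter windows of the same length. Apoa5 held CACGTG at 82 and TATAAA at 31 bases before the start, motifs found in 6.02% and 12.4% of all windows. TTACNCAA, found in 1.95%, occurred in none of the 12. A match says only that the letters are there. Of the factors themselves, Hnf4a differed by -0.01 and -0.02 and Ppara by -0.25 and 0.08 at 24 hrs after 5 and 10 days, and neither passed the test.

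The other 9 genes were well above background in the liver channel on all 39 arrays. At 24 hrs their differences lay between -0.26 and 0.29 after 5 days (median 0.04, against 0 over all genes) and between -0.36 and 0.19 after 10 days (median -0.02, against 0). These values moved with the scaling. Without scaling between arrays, all 9 were below 0 after 5 days (median -0.53) and 7 of 9 after 10 days (median -0.54). With the series table, all 9 were below 0 after 5 days (median -0.39), and in the liver channel alone 6 of 9 were above 0 (median 0.21). Of the 9, 0 were called by limma at either point, and before adjustment 0 had a p at or under 0.05, against 2857 and 488 of all 17016 genes. The intervals were wide for some. Apoh, a phospholipid-binding plasma protein that acts on clotting, differed by 0.29 after 5 days with an interval of -0.79 to 1.37, and Apom, which carries sphingosine-1-phosphate on high density lipoprotein, by 0.21 with an interval of -0.84 to 1.26. Apoa2, the other major structural protein of that particle beside Apoa1, differed by -0.08 after 5 days (-0.66 to 0.49) and by -0.36 after 10 days (-0.93 to 0.22).

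**Figure D2:**
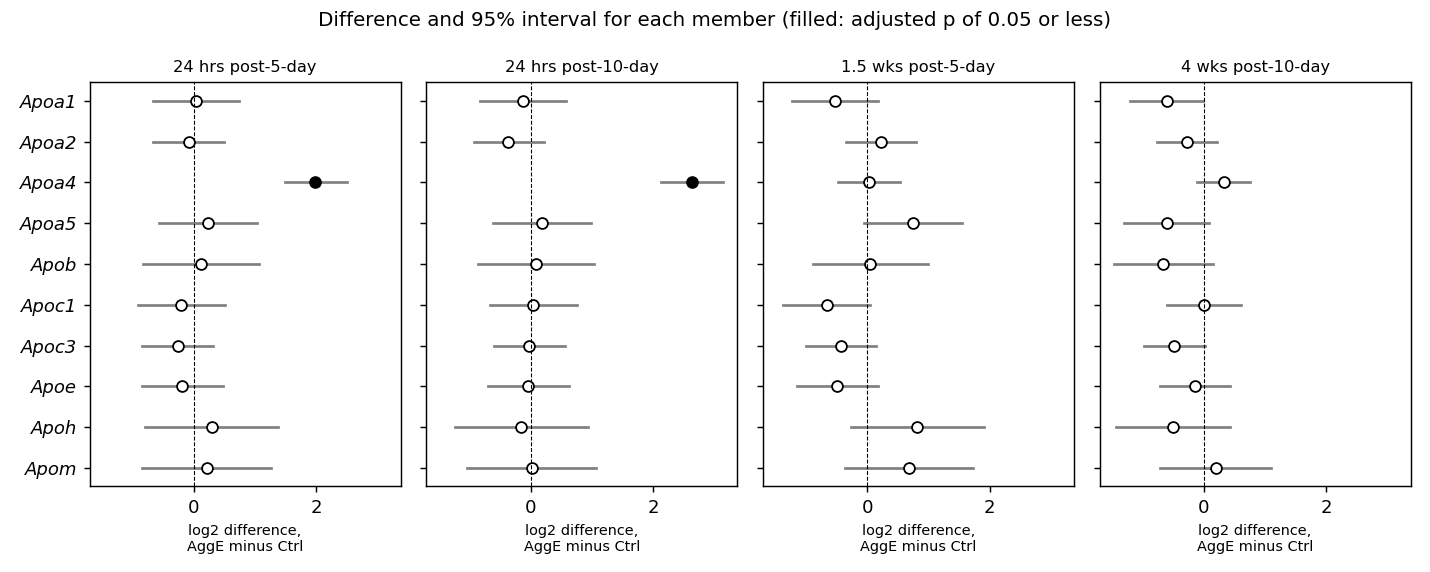
AggE minus Ctrl difference on the log2 scale (x axis) with its 95% interval for each of the 10 genes (y axis) at the 4 time points, filled where the adjusted p was 0.05 or less. Apoa4 stands at 1.98 and 2.63 at the 24-hr points, and all other intervals at those points include 0.

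At 4 wks post-10-day, 7 of the 9 other genes had a lower mean in AggE than in Ctrl mice, but with the liver channel alone only 1 of 9 did. None passed the test. Their median difference was -0.49 as a ratio and 0.23 in the liver channel alone, against 0.01 over all genes as a ratio. Apoa1, the main protein of high density lipoprotein, had a lowest, median and highest level of 6.14, 6.67 and 7.31 in the 6 Ctrl mice and 5.62, 5.97 and 6.80 in the 6 AggE mice. The ranges overlapped over most of their length. The difference was -0.61 (95% interval -1.21 to -0.01), with an unadjusted p of 0.0477 and an adjusted p of 0.238 in limma. In the liver channel alone the Apoa1 difference was 0.02, and without scaling between arrays it was -1.11 and passed (limma adjusted p = 0.0484). On slide 9, which held both groups, the 1 AggE mouse stood 1.01 below the mean of the 3 Ctrl mice for Apoa1, 1.48 below for Apoh and 0.19 above for Apoa4. That AggE mouse is the one whose array had a low correlation with the others.

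Among the regulators of triglyceride clearance none passed at 4 wks. Apoc3, which slows lipoprotein lipase and particle uptake, differed by -0.49 (-0.98 to 0.01, limma adjusted p = 0.250). Apoa5, which promotes lipolysis, differed by -0.61 (-1.30 to 0.08, limma adjusted p = 0.314), and its AggE mice ran from 4.97 to 6.21 against 6.06 to 6.42 in Ctrl. Apoc1, an inhibitor of remnant uptake, differed by 0 (-0.60 to 0.61), and Apoe, the ligand that receptors bind on remnants, by -0.15 (-0.72 to 0.42). Apob differed by -0.66 by its reported probe, with Ctrl mice from 4.06 to 6.5 and AggE mice from 3.66 to 6.15. Its other probes gave -0.38 and -0.97, the last with limma adjusted p = 0.0771.

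The 3 Apob probes also parted at 1.5 wks, where they gave 0.05, 0.97 and -0.79. None of these passed (limma adjusted p = 1 for each), and the intervals of the last pair meet only at their ends, running from -0.03 to 1.96 and from -1.54 to -0.03. At 24 hrs the 3 probes gave 0.12, 0.38 and -0.34 after 5 days and 0.09, -0.27 and -0.09 after 10 days. At 24 hrs post-5-day the 2 probes of Apoa5 gave 0.23 and -0.26, and those of Apoc3 gave -0.26 and 0.09.

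**Figure D3:**
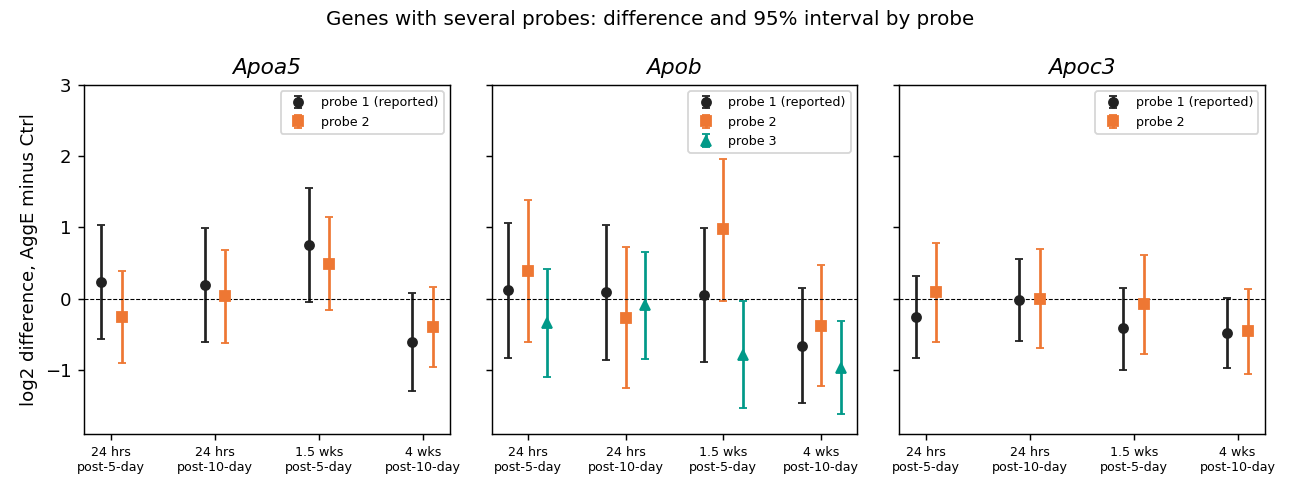
AggE minus Ctrl difference on the log2 scale (y axis) with its 95% interval by time point (x axis) for each probe of Apoa5, Apob and Apoc3. The Apob probes lie farthest apart at 1.5 wks, at 0.05, 0.97 and -0.79.

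Several of the genes had other levels at 1.5 wks post-5-day than elsewhere, in Ctrl and AggE mice alike. For Apob the probes parted. The reported one had means of 5.21 and 5.26 there against 5.10 to 5.88 in the other 6 groups, and another had 2.53 and 3.49 against 5.39 to 6.49. For 8 of the 10 genes, all but Apoa4 and Apoc3, the group with the largest SD was one of this time point, as it was for 24.7% of the 16451 genes with a value on every array. Apoa1 was 8.92, 7.61, 9.16 and 7.87 in the Ctrl mice and 8.47, 7.24, 7.50, 7.64 and 8.48 in the AggE mice there. The group means of 8.39 and 7.87 compare with 5.81 to 6.82 in the other 6 groups, a description across slides that was not tested. Apoe, with means of 7.97 and 7.48 against 5.61 to 7.23 elsewhere, and Apoc3, with 7.03 and 6.61 against 5.09 to 5.96, had the same order as a ratio. So did Apoa2, with 7.43 and 7.66 against 5.96 to 7.35. The log2 liver signal after both channels were scaled together (below, the jointly scaled liver signal) was also read. It is not the liver channel alone used above, and the reference still enters its scaling. In it Apoa1 was still higher at 1.5 wks (14.97 and 14.77 against 13.62 to 14.40). Apoe (16.41 and 16.58 against 16.28 to 16.76), Apoc3 (14.71 and 14.91 against 14.50 to 15.15) and Apoc1 (16.77 and 16.73 against 16.75 to 17.17) were not. Apoa2 was lower in it at 1.5 wks than elsewhere (13.75 and 14.50 against 14.80 to 15.30).

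Apom and Apoh were low in the same mice, as a ratio and in the jointly scaled liver signal. Apom was 1.02, 4.08, 0.87 and 3.54 in the Ctrl mice and 1.59, 4.30, 3.59, 3.85 and 1.98 in the AggE mice at 1.5 wks. Apoh was 4.82, 6.91, 3.09 and 6.84 in the Ctrl mice and 5.37, 7.08, 6.51, 7.29 and 4.91 in the AggE mice. In both genes the lowest 4 of these 9 mice were Ctrl replicates 1 and 3 and AggE replicates 1 and 5, the mice whose arrays had a low correlation with the others. The same 4 mice had the highest Apoa1 and Apoe ratios of the 9. In the jointly scaled liver signal, Ctrl replicates 3 and 1 and AggE replicate 5 were still the highest for Apoa1 (15.32, 15.09 and 15.12). AggE replicate 1 was not (14.77). For Apoe none of the 4 was among the highest 4. The summed signal of the hepatocyte markers was 43950 to 113600 over the 9 mice of this point and 120300 to 227800 over all others. Its part in these levels was not tested. On slide 7, which held both groups, the 1 AggE mouse differed from the mean of 3 Ctrl mice by -0.08 for Apoa1, -0.03 for Apoh and -0.02 for Apom, and by 0.92 for Apob and 0.65 for Apoa2.

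**Figure D4:**
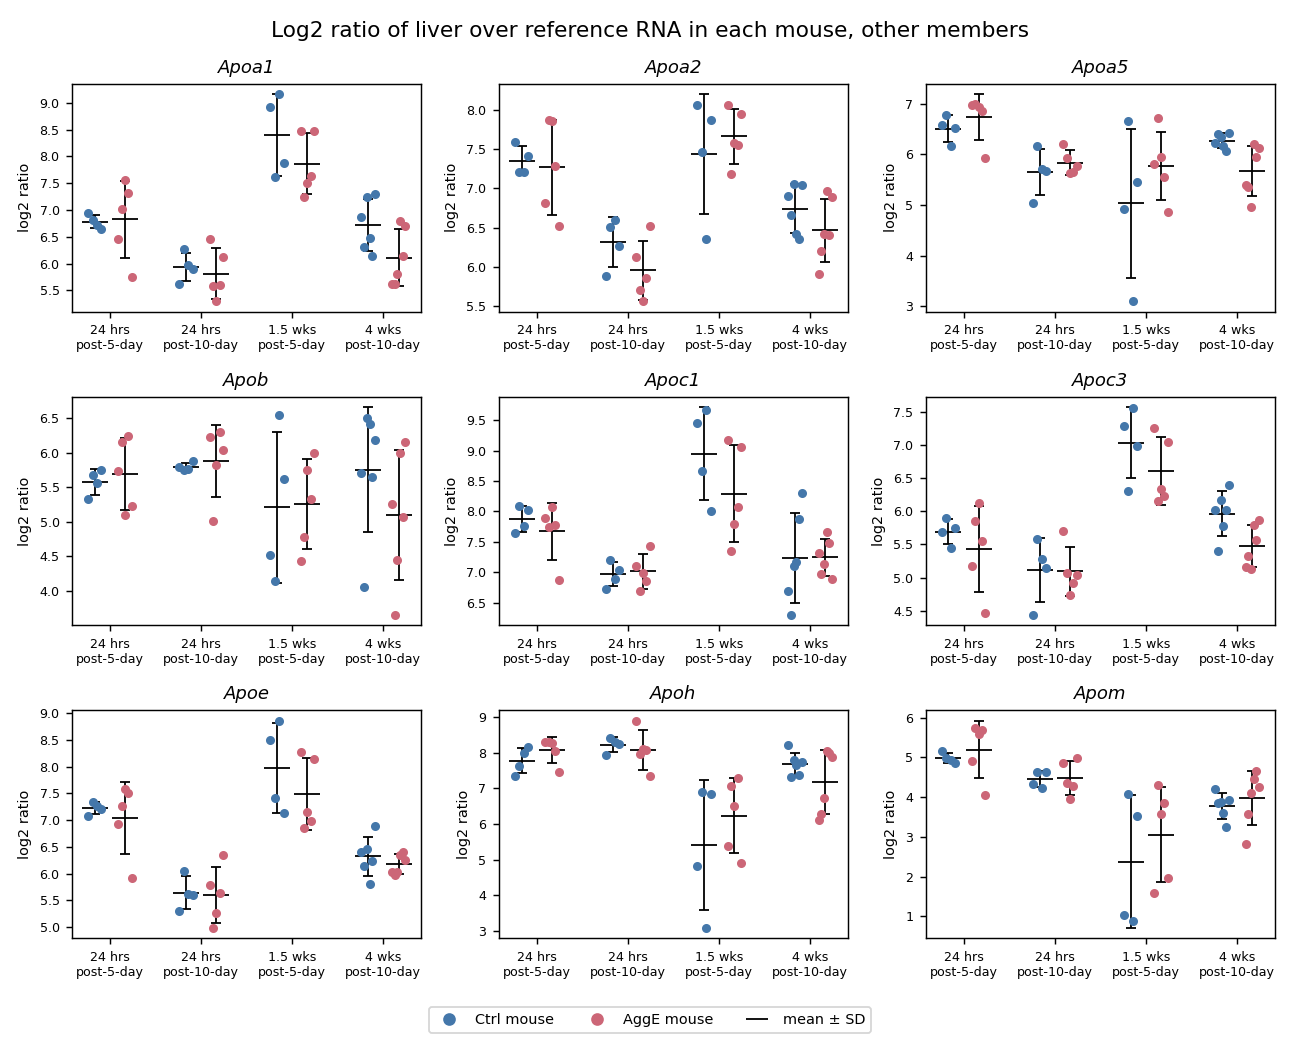
Log2 ratio of liver over reference RNA (y axis, scaled for each gene) in each of 39 mice by time point (x axis) for the 9 genes other than Apoa4, with Ctrl in blue, AggE in red and bars giving the mean ± SD. At 1.5 wks the mean ratios of Apoa1, Apoa2, Apoc1, Apoc3 and Apoe stand above those of their other groups, and those of Apoh and Apom below. In the jointly scaled liver signal only Apoa1 stands above its other groups. The spread at 1.5 wks is widest in Ctrl for Apoh (SD 1.83) and Apom (SD 1.67).

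Apoa1 and Apoe each had 10 spots per array, with a median SD over spots of 0.25 and 0.17, beside a within-group SD over mice, which also holds labeling and array effects, of 0.54 and 0.51. The within-group SD over mice was 0.39 for Apoa4 and 0.44 to 0.83 for the other 9 genes, between the 93.1 and the 99.7 percentile of all genes. That ranking was not matched for signal. The liver signal of the other 9 genes was at or above the 97.4 percentile of probes, and its part in their rank was not tested.

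Within groups, the genes of the family varied together from mouse to mouse to different degrees. As a description over 39 arrays that share slides and scaling, the deviations from the group mean had a Pearson r of 0.88 for Apoa1 with Apoc3, 0.86 for Apoa1 with Apoe and 0.83 for Apoh with Apom. Without the 1.5-wk arrays these were 0.85, 0.79 and 0.60. For Apoa1 with Apom the value was -0.14 with those arrays and 0.79 without them. Apoa4 had an r with the other genes from -0.35 (Apoc3) to 0.04 (Apom), and from -0.39 (Apoc3) to 0.01 (Apom) without the 1.5-wk arrays. Its group SD was 0.06 to 0.13 at 1.5 and 4 wks, against 0.43 to 0.69 at 24 hrs. These r values thus rest mostly on the 24-hr arrays, and its low signal elsewhere limits them. Of 3335 genes compared, those most like Apoa4 in this measure were Ninj1 (0.53), Glyctk (0.52), Hras (0.50), Ces2a (0.49) and Itih1 (0.48). Those most like Apoa1 were Vtn (0.90), F10 (0.88), Car3 (0.86) and Ftcd (0.84). All are the highest values picked from 3335, and how high such a top value gets by chance was not tested. The Apoa4 list is therefore not shown to vary with it.

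Other genes of lipoprotein transport were listed by role, and 66 of 67 were on the array. They covered further apolipoproteins, particle assembly and secretion, plasma lipases, receptors, cholesterol pumps and the transcription factors of these genes. By limma, 0 of the 66 were called at 24 hrs after 5 days (3.1% of all genes), at 24 hrs after 10 days (0.094%) and at 1.5 wks (0%), with medians of -0.04 and 0.02 at the 24-hr points after 5 and 10 days and of 0.04 at 1.5 wks. Among the 22 transcription factors at 24 hrs, Creb3l3, an activator of Apoa4, differed by 0.12 after 5 days and 0.24 after 10 days, and Ppargc1a, a coactivator, by 0.08 and 0. Mttp, which loads lipid onto Apob, differed by -0.16 and -0.14.

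At 4 wks post-10-day, 5 of the 66 were lower and 1 was higher in AggE than in Ctrl mice (9.09% of the list against 4.18% of all genes). Surf4, which exports lipoproteins from the endoplasmic reticulum, was 0.17, 0.95 and 1.26 (lowest, median and highest) in Ctrl and -0.24, 0 and 0.48 in AggE mice, with a small overlap. It fell by 0.78 (limma adjusted p = 0.00998). Among proteins carried on high density lipoprotein, Saa4 fell by 1.18 (limma adjusted p = 0.0105) and the antioxidant enzyme Pon1 fell by 1.32 (limma adjusted p = 0.0197). Apof, an inhibitor of lipid transfer, fell by 0.92 (limma adjusted p = 0.0470). With the liver channel alone none of these passed, and the differences were -0.66 for Surf4, -0.63 for Saa4, -0.43 for Pon1 and -0.18 for Apof. With the log ratios of the series table Surf4 differed by -0.76 and passed, while Saa4 differed by -0.02, Pon1 by -0.34 and Apof by -0.01. Nr0b2, a nuclear corepressor well above background on 20 of 39 arrays, was higher by 0.50 (limma adjusted p = 0.0364), by 0.17 in the liver channel alone and by 1.29 in the series table, neither of which passed. All 6 lost the call when slide was taken as a random block, with limma adjusted p from 0.0621 (Saa4) to 0.352 (Nr0b2). Of 26 alternative fits, Surf4 was called in 20, Saa4 in 18, Pon1 in 16, Nr0b2 in 9 and Apof in 7. As the mean over its probes the Surf4 difference was -0.32 and passed (limma adjusted p = 0.0233). With each of the 12 mice left out in turn, Surf4 and Saa4 passed every time. Pon1 passed in 10 of the 12, losing the call without AggE replicate 2 (-1.09) or 3 (-1.14). Nr0b2 passed in 5, losing it without AggE replicates 2, 3 or 5 or Ctrl replicates 1, 3, 4 or 5, at 0.32 without AggE replicate 5 and 0.47 to 0.49 otherwise. Apof passed in 4, losing it without AggE replicates 1, 2 or 3 or Ctrl replicates 1, 3, 4, 5 or 6, at -0.95 to -0.70.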

How the data were processed

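Liver RNA of 39 mice in 8 groups was measured, each on 1 array. The deposited files held, per the file headers, raw median spot and background intensities read by the authors with Agilent Feature Extraction (11.5.1.1 per the labels; the methods name an earlier version). The authors also deposited processed intensities and a series table of log10 ratios of Cy5 over Cy3, used as alternatives. From the median intensities, normexp background correction (offset 50), loess within arrays and quantile scaling between arrays were applied, following the order of steps in the methods, with limma 3.58.1 in R 4.3.3. The methods do not name the background method. Of 25903 RefSeq probes, 24375 matched a symbol of the RefSeq table. Repeat spots were averaged, and the probe of highest mean Cy5 signal stood for a gene. One moderated fit over 8 groups gave all tests, with Benjamini-Hochberg adjustment over RefSeq probes, and was tested on simulated data. Named genes were the 10 members, any listed pathway gene called, and the 5 genes most like Apoa4 and Apoa1. Further genes were named for their role with their values known. Some named genes are not reported here. The members and lists were chosen with earlier results of these data known. Replicates are separate mice. The number of arrays limits the precision. Replicate numbers do not pair the mice, as described with the alternatives.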

Additional observations from a re-analysis of the deposited data

Results flagged for a closer look

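In AggE replicate 5 at 24 hrs post-5-day, the mouse hybridized on slide 6, Apoa5 was 5.92 with the nearest of the other 4 mice at 6.86, and Apoc1 was 6.87 with the nearest at 7.74. In Ctrl replicate 2 at 4 wks post-10-day, Apob was 4.06 with the nearest at 5.64. Each value lay farther from its group than Dixon's 95% limit allows. They are 3 of 80 sets of a gene in a group, and chance gives such a value in about 1 in 20. The Apoa4 difference between AggE and Ctrl mice differed between time points in the test of the interaction, by 1.96 from 24 hrs to 1.5 wks after the 5-day regimen and by 2.31 from 24 hrs to 4 wks after the 10-day regimen. With slide as a random block neither passed (limma adjusted p = 0.567 and 0.337), and of the alternatives that leave out no single mouse the first passed in 5 of 14 and the second in 7 of 13.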

How the results depend on the processing

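The Apoa4 difference kept its direction in all 22 alternatives at each 24-hr point and passed in 18 of them. Of the 13 that leave out no single mouse it passed in 9 at each point. Among these 13 it ranged from 1.31 to 3.12 after 5 days and from 1.53 to 3.84 after 10 days. Keeping only probes well above background, averaging over probes and omitting the 5 arrays of low correlation could not change it. It stayed at 1.98 and 2.63 there, since Apoa4 has 1 probe and those arrays are not of 24 hrs. After 5 days 0 genes of the family were called without scaling between arrays (the same values arise with Aquantile, which leaves ratios as they are), with the series table's log ratios and with slide as a random block (limma adjusted p = 0.0616). After 10 days 0 were called without scaling between arrays, with a normexp offset of 0 and with only the groups compared (limma adjusted p = 0.0505). At 4 wks 1 was called, Apoa1, without scaling between arrays. The change from 24 hrs to 1.5 wks gave 0 calls without background subtraction, with processed signals, without scaling between arrays, with an offset of 0, the series table, slide as a random block, the first scan day only or without the 5 arrays of low correlation. The change from 24 hrs to 4 wks gave 0 calls with processed signals, without scaling, with an offset of 0, the series table and slide as a random block. The cause of these losses was not tested. Leaving out 1 mouse at a time gave 1 call throughout at 24 hrs, with Apoa4 from 1.81 to 2.25 after 5 days and from 2.43 to 2.95 after 10 days, 0 calls at 1.5 and 4 wks and between regimens, 0 to 1 for the change to 1.5 wks (0 without Ctrl replicate 4 of 24 hrs post-5-day) and 1 for the change to 4 wks. With the replicate number as a block the counts were 1, 1, 0 and 0 at the 4 time points and Apoa4 differed by 2.00 and 2.65 at 24 hrs. The replicate numbers do not pair the mice, since same-numbered deviations correlated between -0.448 and 0.502 and in each comparison 1 mouse correlated best with its own number. With slide as a fixed block, possible at 1.5 and 4 wks only, Nr0b2 turned to -0.03. The sign of the other 9 genes turned in 139 of 846 values, and in 13 of 298 where the difference was 0.4 or more in size. A move to or from a rounded 0 counts as a turn. This holds for 22 values of Apoc1 at 4 wks, where the main difference was 0. The offset of 0, the single scan day and the omission of 5 arrays were chosen after seeing the data. Apoa4 near background at 1.5 wks and in the reference limits its fold.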
